A study of Mus musculus with 8 samples.

Results

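The PI3-kinase and Akt genes described here are the 8 genes Pik3ca, Pik3cb, Pik3r1, Pik3r2, Pik3r3, Akt1, Akt2 and Pdpk1, and their members were every non-control probe whose transcript accession maps to one of these names. The array carries 19 such probes, of which 18 were tested and 17 were well above background on all 8 arrays. All 8 genes had a tested probe, among 13600 genes tested and 19096 named. The hearts came from mouse embryos at E18.5, 4 of them WT and 4 SIRT1 KO, with 1 heart per one-color Agilent array. Both groups were C57BL/6 on a chow diet from crosses of heterozygous parents, and the KO is a whole-body germ-line deletion of Sirt1, so every cell type of the heart carries it. The authors state that hearts of both sexes were analysed. On these arrays the Y-linked gene Ddx3y was well above background in 4 WT and 3 SIRT1 KO hearts, the exception being SIRT1 KO replicate 2. The female marker Xist was well above background in 0 WT and 2 SIRT1 KO hearts.

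Class I PI3-kinases pair a catalytic subunit with a regulatory subunit that docks on activated growth factor receptors. They make the lipid PIP3 at the plasma membrane, and PIP3 recruits Akt together with PDK1, the kinase that phosphorylates the activation loop of Akt. In the developing heart this route is known for carrying insulin-like and other growth factor signals into cell growth, survival and glucose use.

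Values are log2 signals, that is log2 of the processed intensity of a probe minus the 75th percentile of its array, so a log2 signal of 0 is the level of that percentile. Genotypes were compared probe by probe with limma, and the threshold for a call is an adjusted p of 0.05 (Benjamini-Hochberg, over all probes well above background on 4 or more arrays). The percentile was 939 to 1033 intensity units on the WT arrays and 777 to 906 on the SIRT1 KO arrays. The 4 WT arrays lay on 1 slide and the 4 SIRT1 KO arrays on the other, and each slide had its own scan day, so that genotype cannot be told apart from slide or scan day. The gene deleted in the KO was read as a check of the labels, and its signal did not bear them out, since neither probe was lower past the threshold. The brighter Sirt1 probe was higher in the hearts labelled SIRT1 KO, with a log2 fold change of 0.54 (SE, the standard error, 0.11; limma adjusted p = 0.0323), and the other had a log2 fold change of -0.11 (SE 0.11, limma adjusted p = 0.589). The position of both probes within the transcript was not analysed here, and all directions are those of the hearts labelled SIRT1 KO against the hearts labelled WT. All 10 cardiomyocyte, 6 endothelial, 8 fibroblast and epicardial, 4 smooth muscle and 8 macrophage and leukocyte markers were well above background in every heart. None of them passed the threshold, beside 4.62% of all tested genes. Myh7 (log2 fold change 0.31), Pdgfra (0.21), Aldh1a2 (-0.30) and Cd68 (0.64) separated the genotypes, as did 14.0% of all tested genes, and the other markers of these classes overlapped. Of the lung markers 0 of 4 were well above background in every heart, and 2 of 4 were in no heart. The summed signal of the 4 liver markers on the array, relative to the 75th percentile, was 3.39 to 11.0 in the WT hearts and 4.01 to 48.1 in the SIRT1 KO hearts. Among 6 erythroid markers Hbb-y rose (log2 fold change 0.92), while their summed signal was 509 to 557 in WT and 440 to 538 in SIRT1 KO. Among 5 nerve and Schwann cell markers Sox10 rose (log2 fold change 0.80) and 3 of the 5 were well above background in no heart, with summed signals of 0.233 to 0.302 in WT and 0.328 to 0.414 in SIRT1 KO. The part of these cells in the results was not tested. In whole-heart RNA, fewer cells of a type and less RNA per cell cannot be told apart.

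Pdpk1, which encodes the Akt-activating kinase PDK1, was the gene whose signal differed between the genotypes, and it did so on 1 of its 3 probes. On that probe (A_52_P111390) the log2 signal was 1.79, 2.06, 1.69 and 2.13 in the 4 WT hearts and 3.85, 3.89, 2.87 and 3.22 in the 4 SIRT1 KO hearts. Every SIRT1 KO heart lay above every WT heart, and SIRT1 KO replicates 1 and 2 were the highest. The means were 1.92 ± 0.21 and 3.46 ± 0.50 (SD, n = 4 each). The log2 fold change was 1.54 (SE 0.23, limma adjusted p = 0.00728), a 2.90-fold higher signal with a 95% confidence interval of 2.02 to 4.16. The exact two-sided permutation test gave 0.0286, the smallest p that 4 against 4 hearts allow. The difference is also visible before any scaling, since the processed intensity was 3552, 4316, 3274 and 4125 in the WT hearts and 13096, 13371, 5664 and 8031 in the SIRT1 KO hearts. The probe kept its call in each of the 8 fits that left out 1 heart, where its log2 fold change was 1.39 to 1.73. Without SIRT1 KO replicate 2, the heart with low Y-linked signal, the log2 fold change was 1.39 (limma adjusted p = 0.0184). It missed the threshold with the methods' analysis of variance, computed with genotype as its only factor (adjusted p = 0.0535).

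The other Pdpk1 probes gave smaller values. On A_52_P619138 the log2 signal was 1.88, 1.91, 1.87 and 2.04 in the WT hearts and 2.05, 1.88, 1.85 and 2.05 in the SIRT1 KO hearts. The genotypes overlapped there, and the log2 fold change was 0.03 (95% confidence interval -0.15 to 0.21, limma adjusted p = 0.846). On A_52_P111397 the log2 signal was -1.70, -1.97, -1.87 and -1.84 in the WT hearts and -1.91, -1.70, -1.63 and -1.74 in the SIRT1 KO hearts. These ranges overlapped as well, and the log2 fold change was 0.10 (95% confidence interval -0.10 to 0.30, limma adjusted p = 0.550). Both values turned negative when arrays were scaled to their median or not scaled.

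**Figure D1:**
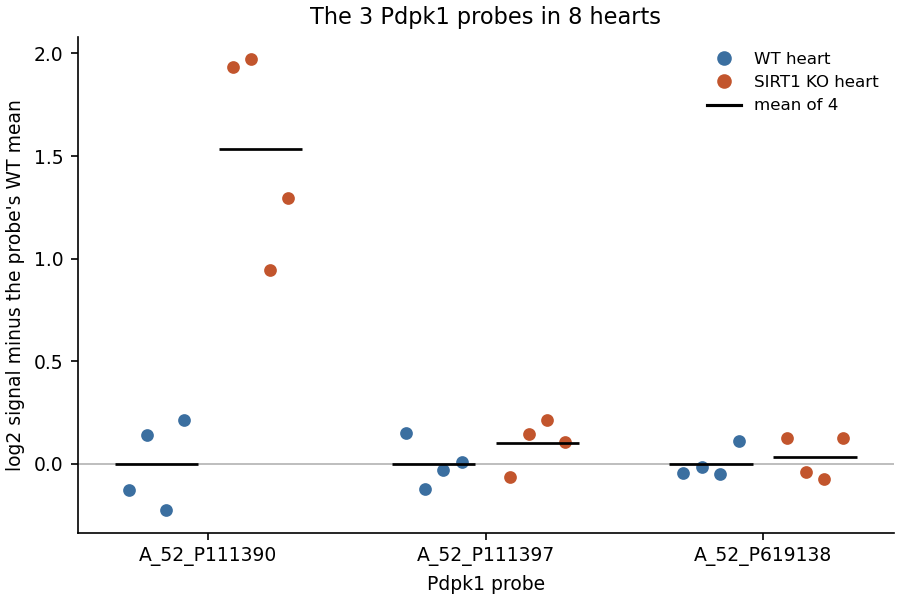
Log2 signal of each Pdpk1 probe in each heart minus the mean of the 4 WT hearts for that probe (y axis, log2 units); points are hearts, blue for WT and orange for SIRT1 KO, and bars are means of 4. The SIRT1 KO hearts stand apart on A_52_P111390, with a mean difference of 1.54, and overlap the WT hearts on A_52_P111397 and A_52_P619138.

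The disagreement of the probes was measured within each heart, where a constant subtracted from the array cancels. The log2 difference between A_52_P111390 and A_52_P619138 was -0.09, 0.16, -0.18 and 0.10 in the WT hearts and 1.80, 2.01, 1.02 and 1.17 in the SIRT1 KO hearts. It was larger in every SIRT1 KO heart than in any WT heart, by 1.50 on average (exact two-sided permutation p = 0.0286, adjusted p = 0.171 over the 15 pairs of probes of 1 gene). Against A_52_P111397 it was larger by 1.44 (exact two-sided permutation p = 0.0286, adjusted p = 0.171). The pair of other probes changed by 0.07 relative to each other (exact two-sided permutation p = 0.657). A spread this wide between probes of 1 gene was uncommon on the array. Pdpk1 was picked for this comparison after its values were seen, and its span rests on A_52_P111390. The log2 fold changes of the Pdpk1 probes spanned 1.50, and a span at least as wide was found in 16 of the 5043 genes with 2 or more tested probes (0.317%) and in 9 of the 1262 genes with 3 or more (0.713%). The median span of the latter was 0.23.

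RefSeq (GRCm38.p6) gives Pdpk1 more than 1 start, and the 250 bases before each are shown because the probes of this gene disagreed. The array does not tell which start a transcript came from, and where the probes lie within the transcripts was not analysed here. Both windows are on the minus strand of chromosome 17 and are written 5′ to 3′, with each CG dinucleotide in capitals. The first is chr17:24150923-24151172 and the second is chr17:24141595-24141844.
Pdpk1 start 1: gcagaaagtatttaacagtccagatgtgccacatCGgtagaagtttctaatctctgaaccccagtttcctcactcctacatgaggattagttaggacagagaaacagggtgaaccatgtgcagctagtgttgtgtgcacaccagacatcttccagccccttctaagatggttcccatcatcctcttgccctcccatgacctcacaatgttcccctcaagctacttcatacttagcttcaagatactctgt
Pdpk1 start 2: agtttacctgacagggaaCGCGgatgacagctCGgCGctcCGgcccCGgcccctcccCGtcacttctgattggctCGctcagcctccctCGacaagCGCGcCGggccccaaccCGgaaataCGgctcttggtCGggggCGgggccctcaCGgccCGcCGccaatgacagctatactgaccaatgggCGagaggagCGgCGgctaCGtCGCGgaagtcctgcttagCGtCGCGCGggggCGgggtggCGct
The first window holds 1 CG, and 92.1% of 32851 such windows of all genes hold at least as many. The second holds 31, a number that 5.19% of the windows reach, and the median window holds 6. Motifs other than CG were not searched.

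The neighbours of Pdpk1 on the chromosome that had a tested probe were read from the same gene order, and they were chosen after the Pdpk1 values were seen. Kctd5, the nearest before it, had a log2 fold change of -0.08 (limma adjusted p = 0.606). Amdhd2, Atp6v0c and Tbc1d24, on the other side, had 0.05, 0.03 and 0.15 (limma adjusted p = 0.858, 0.890 and 0.551). Prss22, on the side of Kctd5, had 0.54 (SE 0.23, limma adjusted p = 0.207) and was well above background in 2 WT and 4 SIRT1 KO hearts. Of the 6 neighbours, Prss33, which encodes a serine protease, passed the threshold at a log2 fold change of 0.60 (SE 0.10, limma adjusted p = 0.0133) and no overlap of the genotypes. Its signal was dim, with mean log2 signals of -5.23 in WT and -4.63 in SIRT1 KO. It was well above background in 3 WT and 4 SIRT1 KO hearts. Prss33 is the 20th gene from Pdpk1 in that order.

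Among the other 17 tested probes of the 8 genes, 0 passed the threshold with limma, 0 had an unadjusted p under 0.05, and 0 separated the genotypes. The same 0 of 17 was found with the methods' analysis of variance after adjustment. Their log2 fold changes ran from -0.20 to 0.30, and the lowest adjusted p was 0.297. Their 95% confidence intervals reached from -0.44 to 0.89. So 1 of 18 member probes was called, beside 4.91% of all 25624 tested probes. By direction, 1 of 18 rose and 0 of 18 fell, beside 3.98% and 0.921% of all probes. Likewise 1 of 18 had an unadjusted p under 0.05, beside 21.5% of all probes, and 1 of 18 separated the genotypes, beside 13.8%. The median log2 fold change was 0.02 over the 18 member probes and 0.01 over all tested probes. With each gene taken by its probe of highest mean signal over the 8 arrays, 1 of 8 genes was called, beside 4.62% of all 13600 tested genes, and 1 of 8 separated the genotypes, beside 14.0%. That probe of Pdpk1 is A_52_P111390 through its level in the SIRT1 KO hearts. On the WT arrays alone A_52_P619138 was marginally the brightest, and 0 of 8 genes were then called.

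**Figure D2:**
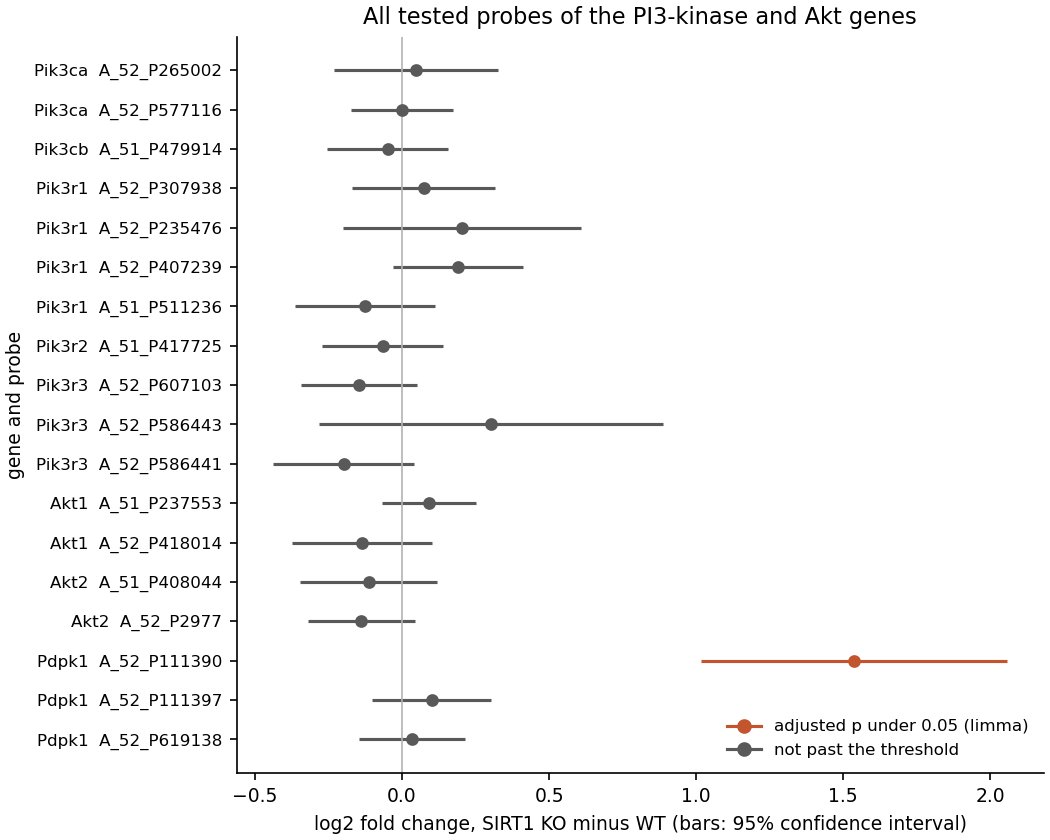
Log2 fold change (x axis, SIRT1 KO minus WT) of the 18 tested probes of the 8 genes, with bars for the 95% confidence interval from limma. Pdpk1 A_52_P111390 at 1.54 is past the threshold, and the intervals of the other 17 all include 0.

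The catalytic subunits come first in the route. Pik3ca encodes p110α, the catalytic subunit through which insulin and growth factor receptors mainly signal. On its brighter probe (A_52_P577116) the log2 signal was 1.73, 1.59, 1.80 and 1.73 in the WT hearts and 1.77, 1.70, 1.60 and 1.76 in the SIRT1 KO hearts. The genotypes covered nearly the same range, with a log2 fold change of 0.00 (95% confidence interval -0.17 to 0.17, limma adjusted p = 0.998). Its other probe (A_52_P265002) ran from -1.29 to -0.78 over the 8 hearts, with a log2 fold change of 0.05 (95% confidence interval -0.23 to 0.33). Pik3cb encodes p110β, which also takes signals from G-protein-coupled receptors. Its tested probe (A_51_P479914) had log2 signals of -1.08, -1.14, -0.82 and -0.94 in the WT hearts and -0.92, -1.06, -1.14 and -1.04 in the SIRT1 KO hearts. The ranges overlapped, and the log2 fold change was -0.05 (95% confidence interval -0.25 to 0.16, limma adjusted p = 0.793). Its other probe (A_52_P581110) was not well above background on any of the 8 arrays and was not tested.

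The regulatory subunits hold the catalytic subunit stable and bring it to the receptor. Pik3r1, which encodes p85α and its shorter forms, was the member other than Pdpk1 with the lowest p on any probe. On its brightest probe (A_52_P407239) the log2 signal was -0.24, -0.11, 0.03 and -0.19 in the WT hearts and 0.02, 0.27, -0.08 and 0.04 in the SIRT1 KO hearts. SIRT1 KO replicate 2 was the highest and the genotypes overlapped, with a log2 fold change of 0.19 (SE 0.10, limma adjusted p = 0.297). The 4 Pik3r1 probes did not share a sign. Their log2 fold changes were 0.19, 0.20 and 0.07 on A_52_P407239, A_52_P235476 and A_52_P307938, and -0.13 on A_51_P511236. Within a heart, A_52_P407239 was higher relative to A_51_P511236 by 0.32 in the SIRT1 KO hearts (exact two-sided permutation p = 0.0571, adjusted p = 0.171 over the 15 pairs). Pik3r2 encodes p85β. Its log2 signal was 1.70, 1.74, 1.80 and 1.94 in the WT hearts and 1.60, 1.77, 1.89 and 1.65 in the SIRT1 KO hearts. These overlapped, with a log2 fold change of -0.07 (95% confidence interval -0.27 to 0.14, limma adjusted p = 0.716). Pik3r3 encodes p55γ, a short regulatory subunit. On its brightest probe (A_52_P607103) the log2 signal was 1.45, 1.38, 1.42 and 1.37 in the WT hearts and 1.23, 1.23, 1.47 and 1.11 in the SIRT1 KO hearts. Replicates 1, 2 and 4 of SIRT1 KO lay below all WT hearts and replicate 3 above them, so the spread was 0.15 (SD) in SIRT1 KO and 0.04 in WT. The log2 fold change was -0.15 (SE 0.09, limma adjusted p = 0.366). The dim Pik3r3 probes gave -0.20 (A_52_P586441) and 0.30 (A_52_P586443), and the latter was well above background in 3 WT and 2 SIRT1 KO hearts.

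The kinases at the end of the route are Akt1, the form linked to cell growth and survival, and Akt2, the form linked to insulin-driven glucose uptake. On the brighter Akt1 probe (A_51_P237553), which is printed as 10 spots per array, the log2 signal was 5.11, 4.99, 4.97 and 5.05 in the WT hearts and 5.15, 5.02, 5.17 and 5.15 in the SIRT1 KO hearts. SIRT1 KO replicate 2 lay within the WT range and the other 3 above it, with a log2 fold change of 0.09 (SE 0.07, limma adjusted p = 0.488). The other Akt1 probe (A_52_P418014) had a log2 fold change of -0.14 (SE 0.11, limma adjusted p = 0.492). On the brighter Akt2 probe (A_52_P2977) the log2 signal was 1.75, 1.56, 1.51 and 1.69 in the WT hearts and 1.54, 1.47, 1.55 and 1.40 in the SIRT1 KO hearts. The groups overlapped, with a log2 fold change of -0.14 (SE 0.08, limma adjusted p = 0.355). The other Akt2 probe (A_51_P408044) gave -0.11 (SE 0.10, limma adjusted p = 0.558).

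**Figure D3:**
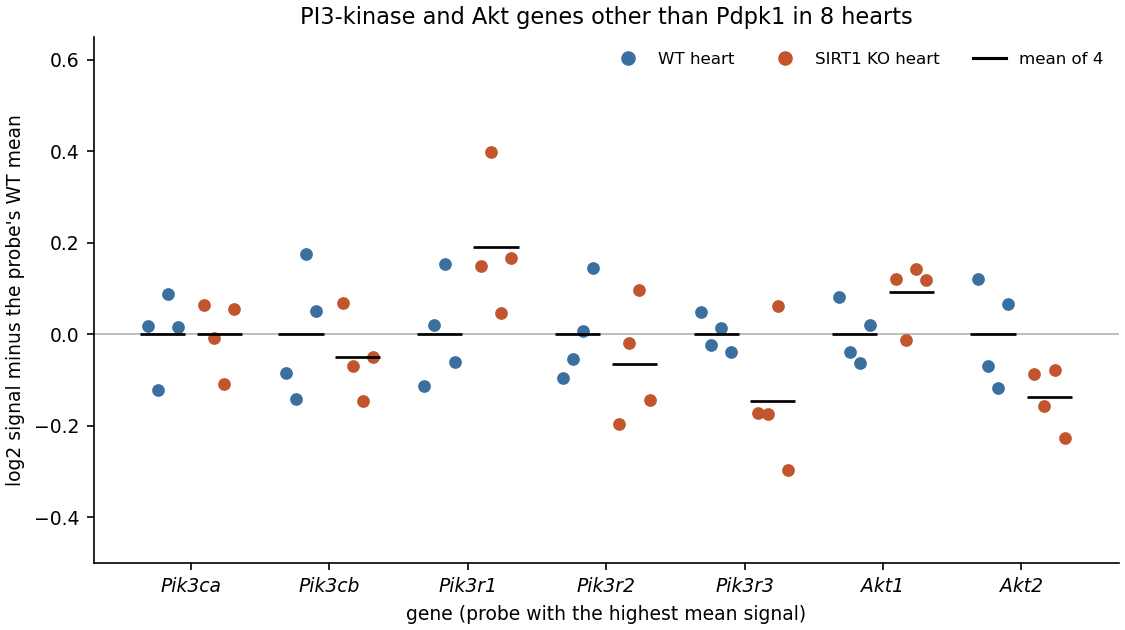
Log2 signal of the brightest probe of each gene other than Pdpk1 in each heart minus the mean of the 4 WT hearts (y axis, log2 units); points are hearts, blue for WT and orange for SIRT1 KO, and bars are means of 4. The genotypes overlap for each of the 7 genes, and the mean differences run from -0.15 for Pik3r3 to 0.19 for Pik3r1.

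A constant subtracted from an array cancels in the difference between 2 genes within a heart, and such differences show unequal change only. Of the 28 pairs of the 8 genes on their brightest probes, 9 separated the genotypes, each with an exact two-sided permutation p of 0.0286 and an adjusted p of 0.0889 over the 28 pairs. Of all 92473200 pairs of tested genes, 15.6% separated them. The 7 pairs that hold Pdpk1 were all among them and rest on the same probe, with Pdpk1 higher relative to the other gene by 1.35 (Pik3r1) to 1.68 (Pik3r3). The remaining 2 pairs, of 21 without Pdpk1, both hold Akt1, and that share is below the 15.6% of all pairs. The log2 difference of Akt1 over Akt2 was 3.36, 3.43, 3.46 and 3.36 in the WT hearts and 3.61, 3.55, 3.62 and 3.75 in the SIRT1 KO hearts, larger by 0.23 in SIRT1 KO. The log2 difference of Pik3r3 from Akt1 was -3.66, -3.61, -3.55 and -3.69 in the WT hearts and -3.92, -3.79, -3.71 and -4.04 in the SIRT1 KO hearts, a change of -0.24. Both rest on the brightest probe of each gene. Against the brighter Akt1 probe, the genotypes overlapped with the other Akt2 probe (a change of 0.21, exact two-sided permutation p = 0.0571) and with both dim Pik3r3 probes, where Pik3r3 changed by -0.29 on A_52_P586441 (exact two-sided permutation p = 0.0571) and by 0.21 on A_52_P586443 (exact two-sided permutation p = 0.600). With the other Akt1 probe the same differences changed by 0.00 (exact two-sided permutation p = 1) and -0.01 (exact two-sided permutation p = 0.971), and the Akt1 probes themselves changed by 0.23 relative to each other (exact two-sided permutation p = 0.0571). The lowest adjusted p among the 19 other pairs was 0.160. When the brightest probe was chosen on the WT arrays alone, 2 pairs separated the genotypes.

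**Figure D4:**
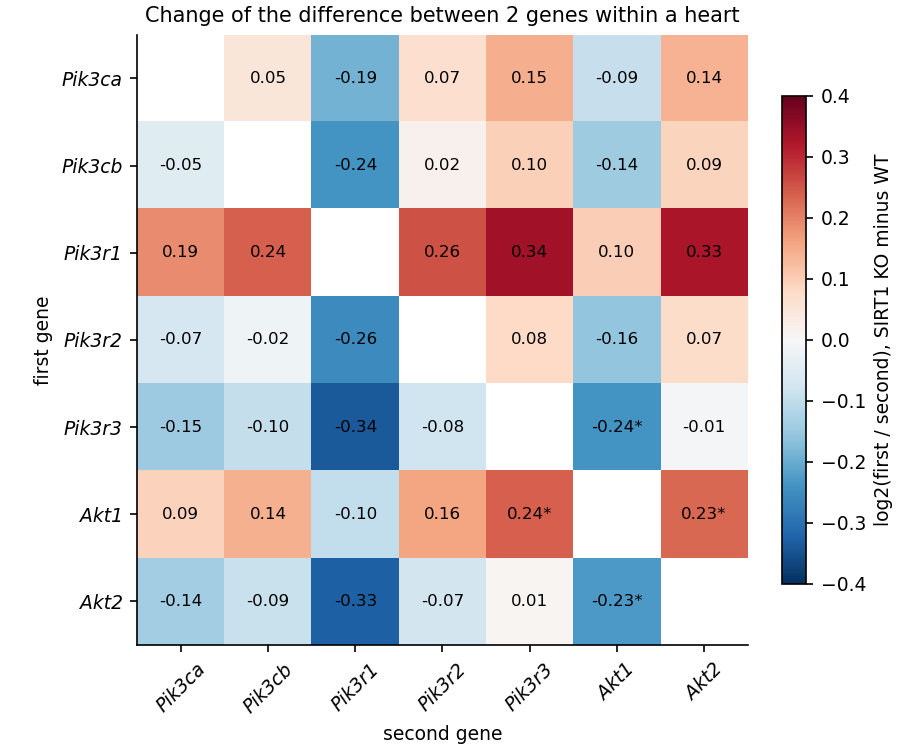
Change of the log2 difference between 2 genes within a heart (colour and number, SIRT1 KO minus WT, brightest probes) for the 7 genes other than Pdpk1; stars mark pairs whose genotypes do not overlap. Akt1 changed by 0.23 relative to Akt2 and by 0.24 relative to Pik3r3, and the other pairs overlap between the genotypes.

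The other genes of the pathway were taken from a list of 78 genes in 7 classes, of which 70 had a tested probe. Irs2, Kit and Palld have no named probe on the array, and Gab2, Erbb3, Sgk2, Foxo3 and Foxo4 did not reach the background threshold on enough arrays. On their brightest probes, 1 of the 70 rose and 1 fell past the threshold, 35 had a positive and 35 a negative log2 fold change, and the median was 0.00 against -0.01 over all tested genes. The genotypes separated in 9 of the 70, and the shares over all tested genes are the 4.62% called and 14.0% separated given above. Rps6ka1, which encodes RSK1, a growth factor-activated kinase that PDK1 phosphorylates, was the gene that rose. Its log2 signal was -0.64, -0.87, -0.98 and -0.96 in the WT hearts and -0.52, -0.37, -0.39 and -0.53 in the SIRT1 KO hearts. All SIRT1 KO hearts lay above all WT hearts, with a log2 fold change of 0.41 (SE 0.09, limma adjusted p = 0.0424). Its other probe gave -0.10 (limma adjusted p = 0.617). With 1 heart left out, Rps6ka1 passed in 1 of the 8 fits, the one without WT replicate 1, and its adjusted p ran from 0.0208 to 0.120. Its call also ended with other settings, namely quantile normalization, cyclic loess, median scaling (log2 fold change 0.28), no scaling (0.19), no filter, the methods' analysis of variance, the Y-linked covariate, the replicate block, and the mean of all its probes. Cdkn1a, which encodes the cell cycle inhibitor p21, a substrate of Akt, was the gene that fell. Its log2 signal was 0.71, 0.68, 0.72 and 0.90 in the WT hearts and 0.46, 0.43, 0.41 and 0.37 in the SIRT1 KO hearts. All SIRT1 KO hearts lay below all WT hearts, with a log2 fold change of -0.34 (SE 0.07, limma adjusted p = 0.0372). Its call was lost in each of the 8 fits that left out 1 heart, where its adjusted p ran from 0.0506 to 0.0927, and also without a filter, with the Y-linked covariate and with the replicate block.

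No other gene of the list passed the threshold. Among 10 tested growth factor receptors and adaptors the median log2 fold change was 0.10, and the lowest p-values were those of Fgfr1 at 0.30 and Pdgfra at 0.21 (limma adjusted p = 0.109 and 0.127). Both separated the genotypes. Among the 6 genes listed with the other class I PI3-kinase subunits the median was 0.01, with Pik3cg at 0.23 and Pik3cd at -0.08. These 6 include Pik3ap1 and Pik3ip1, which are not themselves subunits. Among 7 lipid phosphatases the median was 0.06. Inpp4b, which removes a phosphate from a lipid downstream of PI3-kinase, was at -0.44 (limma adjusted p = 0.142). Among 8 other Akt-family and PDK1-dependent kinases the median was -0.07. Among 9 Akt inhibitors and phosphatases the median was -0.01, with Phlda1 at -0.23 and Phlpp1 at 0.28 (limma adjusted p = 0.183 and 0.203). Among 13 genes of the mTOR complexes and their regulators the median was 0.03, with Mlst8 at 0.25 and Tsc2 at 0.19 (limma adjusted p = 0.132 and 0.355). Among 17 Akt substrates and effectors the median was -0.04, and Pfkfb2, a glycolytic regulator in the heart, was at 0.27 (limma adjusted p = 0.122). The pathway genes whose profile over the 8 hearts was nearest to that of Pdpk1 A_52_P111390, each relative to its WT mean, were Rps6ka1, Phlpp1 and Pfkfb2, with root mean square differences of 0.87, 0.96 and 0.96 log2 units. These are large beside their own log2 fold changes of 0.41, 0.28 and 0.27.

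**Figure D5:**
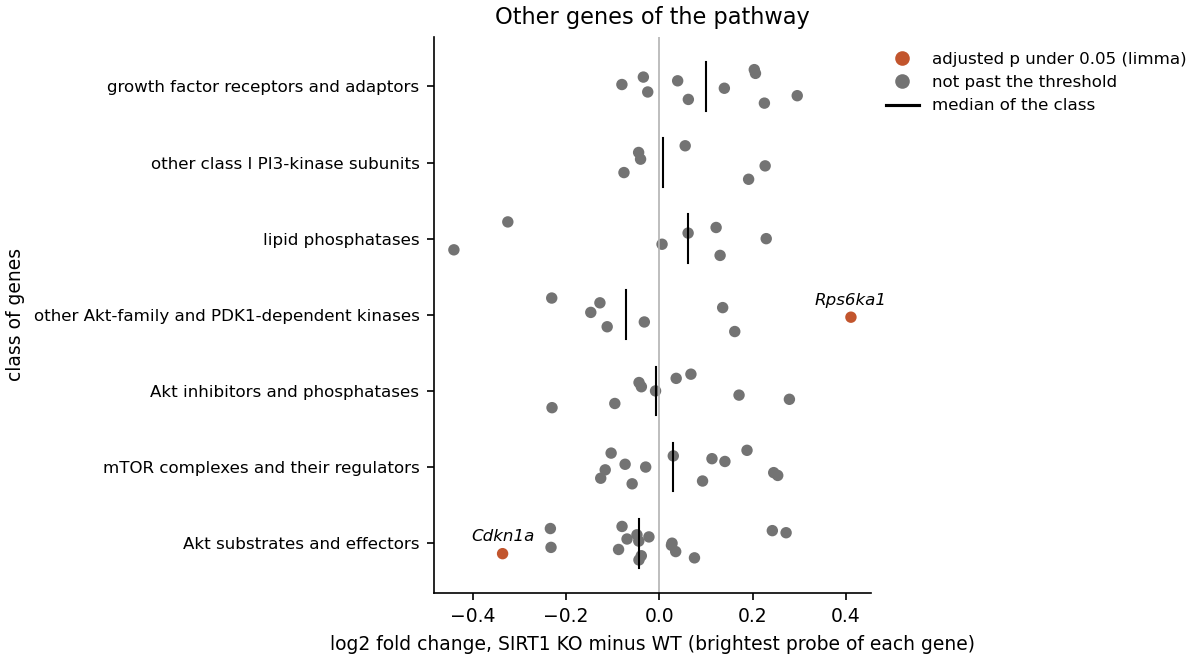
Log2 fold change (x axis, SIRT1 KO minus WT) of the brightest probe of the 70 tested genes of the pathway list, by class (y axis); points are genes and vertical bars are class medians. Rps6ka1 at 0.41 and Cdkn1a at -0.34 are past the threshold, and class medians lie between -0.07 and 0.10.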

How the data were processed

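RNA from 8 hearts was measured on 1-color Agilent arrays. The authors deposited the intensity of every spot as Feature Extraction wrote it with its one-color defaults, background-subtracted and not scaled across arrays; the version is 12.0.0.7 per the file headers. The deposited value table equals the processed signal in 100% of spots. Here log2 was taken of the deposited intensity, the 75th percentile of non-control spots was subtracted, and spots of a probe were averaged without control and outlier spots. Accessions were matched to RefSeq names (GRCm38.p6), which named 28223 of 41174 probes (68.5%). A probe was tested when 4 or more of the 8 arrays had it well above background, which held for 25624 probes. The test was limma 3.58.1 in R 4.3.3 with Benjamini-Hochberg adjustment at 0.05. The share of probes well above background was 59.5% to 65.0% per array, and the number of arrays limits the precision. Within-heart differences used exact permutation tests over all splits of the 8 hearts, with Benjamini-Hochberg adjustment in scipy 1.17.1. The fit was tested on simulated data.

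The members and lists were chosen with earlier results of these data known, and the pathway list was compiled from general knowledge. Named genes are all members, pathway genes past the threshold, the 2 of each class with the smallest p, the 3 nearest in profile to the member with the smallest p, and Sirt1; some genes this rule names are not reported here. Alternatives changed the scaling, the background correction, the filter, the test, the source of the values, covariates (Y-linked signal, a replicate block), array weights, the probe of a gene and each heart left out. The methods name an analysis of variance with Benjamini-Hochberg correction and give no factors; it was run with genotype alone. Python 3.11.15, numpy 2.4.6, pandas 2.3.3 and matplotlib 3.10.9 were used.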

Additional observations from a re-analysis of the deposited data

Results flagged for a closer look

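The members and the named pathway genes, 32 probes in all, were searched in each genotype for a heart whose gap to the nearest of the others, as a share of the range of the 4, exceeded Dixon's 95% critical value. Of the 64 groups of 4 hearts searched, 3 held such a value, from 2 different hearts. Chance flags about 1 in 20 groups, and these groups share hearts. Pik3r1 A_52_P235476 was -1.39 in WT replicate 1, against -1.04 to -0.97 in the other WT hearts. Pik3r3 A_52_P586443 was -4.56 in SIRT1 KO replicate 2, against -5.65 to -5.54 in the other SIRT1 KO hearts. Akt1 A_51_P237553 was 5.02 in SIRT1 KO replicate 2, against 5.15 to 5.17 in the others.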

How the results depend on the processing

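The Pdpk1 probe A_52_P111390 had a log2 fold change of 1.32 to 1.77 over 14 alternatives and passed the threshold in all but the methods' analysis of variance, which gave 0 member probes, 0 member genes and 1 pathway gene. Without scaling between arrays, which moves the median of all probes to -0.21, 7 member probes, 4 member genes and 14 pathway genes passed, beside 24.8% of all probes and 27.1% of all genes with that setting, and the 6 member probes other than Pdpk1 A_52_P111390 among them were lower in SIRT1 KO; median scaling moves that median to -0.12. The brightest probe chosen on the WT arrays alone, an alternative added after seeing the data, gave 0 member genes and 2 pairs without overlap. The count of pathway genes was 4 with normexp on the median signal (also added after seeing the data), 1 with quantile normalization, cyclic loess, or the mean of all probes of a gene, 1 without a filter (Erbb3, in place of Rps6ka1 and Cdkn1a), 0 with the Y-linked covariate and 0 to 1 with 1 heart left out. The main fit left same-numbered hearts unpaired, since 1 of the 4 pairs correlated under 0.1. Their deviations correlated at 0.20, 0.21, 0.06 and 0.14, and 4 of 4 WT hearts correlated best with their own number. Whether same-numbered hearts share more than a number was not tested. With the replicate block 1 member probe, 1 member gene and 0 pathway genes passed (adjusted p = 0.0770 for Rps6ka1 and 0.0800 for Cdkn1a from limma), and the Pdpk1 value was 1.54 (adjusted p = 0.0163 from limma). No value that changed sign was past the threshold. Under median scaling, then without scaling, the log2 fold changes were -0.085 and -0.17 for Pik3ca A_52_P265002, -0.13 and -0.22 for Pik3ca A_52_P577116, -0.059 and -0.15 for Pik3r1 A_52_P307938, -0.041 and -0.13 for Akt1 A_51_P237553, -0.032 and -0.12 for Pdpk1 A_52_P111397, and -0.10 and -0.19 for Pdpk1 A_52_P619138. Without scaling Pik3r1 A_52_P235476 was -0.017 and Pik3r1 A_52_P407239 was -0.030. Array weights gave -0.018 for Pik3ca A_52_P265002 and -0.017 for Pik3ca A_52_P577116. Normexp gave 0.029 for Pik3cb A_51_P479914 and -0.13 for Pdpk1 A_52_P619138. With 1 heart left out, Pik3ca A_52_P265002 ran from -0.035 to 0.14, Pik3ca A_52_P577116 from -0.040 to 0.037 and Pik3cb A_51_P479914 from -0.097 to 0.0095. Normexp on the mean signal was not run, because the files used here hold no such column.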
